A study of Arabidopsis thaliana with 15 samples.

Results

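Expansins and xyloglucan endotransglucosylase/hydrolases (XTHs) are 2 families of secreted proteins that loosen or rebuild the plant cell wall. The rule for these genes takes them by family name and gene identifier and uses no measured value. The 2 families were, however, chosen with earlier results of these data known, so the shares called within them are not free of that choice. The members are 50 of the 32678 named genes of the table, 23 expansins and 27 XTHs, and other genes of both families were not analysed here. The expansins were 17 alpha-expansins (EXPA), 2 beta-expansins (EXPB) and 4 expansin-like genes (EXLA and EXLB). All 50 names matched a symbol or synonym of the same gene identifier in RefSeq.

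The primary wall of a growing plant cell is a network of cellulose microfibrils, xyloglucan and pectin that must yield to turgor for the cell to enlarge. Alpha-expansins loosen it without cutting a polymer, by freeing contacts between cellulose and matrix polysaccharides, and no such activity is established for the expansin-like proteins. XTHs cut xyloglucan, the hemicellulose that binds cellulose, and join the cut end either to another xyloglucan chain or, in the few that act as hydrolases, to water.

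RNA of whole Arabidopsis thaliana seedlings, Col ecotype and wild-type genotype, was sequenced in 15 libraries. The treated groups received 5 µM GR24 4DO (written GR244DO in the labels), a synthetic strigolactone, for 2 h or 4 h, and the others received solvent for 2 h, 4 h or 0 h, with 3 libraries in each of the 5 groups. All seedlings were 10 days old, had grown on solid medium with sucrose and long days, and had stood in liquid medium for 2 h before time 0. The labels do not say whether the replicates came from separate cultures, so each p-value speaks of the spread among these libraries alone, and that spread may be technical.

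Values are RPKM, reads per kilobase of gene per 1e6 assigned reads, and depth was 24.4 to 37.4 M reads a library (1 M is 1e6 reads). Leaf and root markers were both present: RBCS1A, a leaf gene, had group means of 9805 to 15080 RPKM, and BGLU23, a root gene, had group means of 1097 to 1326 RPKM. In 3 pairs of libraries the replicates lay close together, with a chi-square per degree of freedom of 1.13 (solvent 4 h, replicates 1 and 3), 1.74 (solvent 2 h, replicates 2 and 3) and 1.87 (GR24 4DO 4 h, replicates 1 and 2), against 3.82 to 19.2 in the other 12 pairs. They differed by more than counting noise and were kept as separate samples. For calls with GR24 4DO, those lost when each such pair is averaged and counted as 1 sample are given beside the results.

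Differences are on the scale of log2(RPKM + 1), with their standard errors (SE), and this scale understates the change of genes near or under 1 RPKM. A gene was called, and is said to have risen or fallen, where the Benjamini-Hochberg adjusted p of the limma fit over all 19155 genes tested was under 0.05. Of the 50 members, 49 reached 1 RPKM in at least 3 libraries and were tested. EXPA2, an alpha-expansin of germinating seeds, did not: it had 0 to 2 reads in each library and was listed at 0 to 0.0837 RPKM. In bulk seedlings, fewer cells of a type and less RNA per cell cannot be told apart.

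Levels ranged widely within both families. EXPA1, which has been linked to stomatal opening, was the most abundant expansin at 178 RPKM averaged over the 5 groups, and made up 20.5% of the summed RPKM of the expansins. EXPA4 (101 RPKM), EXPA3 (92.2 RPKM) and the beta-expansin EXPB3 (79.9 RPKM) followed, and the group means of EXPA4 and EXPA3 overlapped. The expansins of the lowest levels beside EXPA2 were EXLA3 (1.64 RPKM) and EXPA20 (3.16 RPKM).

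XTH4 was the most abundant XTH at 391 RPKM, 25.1% of the summed RPKM of the XTHs, and its group means ran over 361 to 438 RPKM. XTH31, XTH7 and XTH24 followed at 153, 149.8 and 116 RPKM. The group means of XTH31 and XTH7 overlapped, at 100.2 to 230.0 RPKM for XTH31 and 117 to 184 RPKM for XTH7. XTH22, also named TCH4 and known as a gene induced by touch, averaged 89.7 RPKM. At the low end stood XTH21 (2.83 RPKM) and XTH25 (1.08 RPKM).

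**Figure D1:**
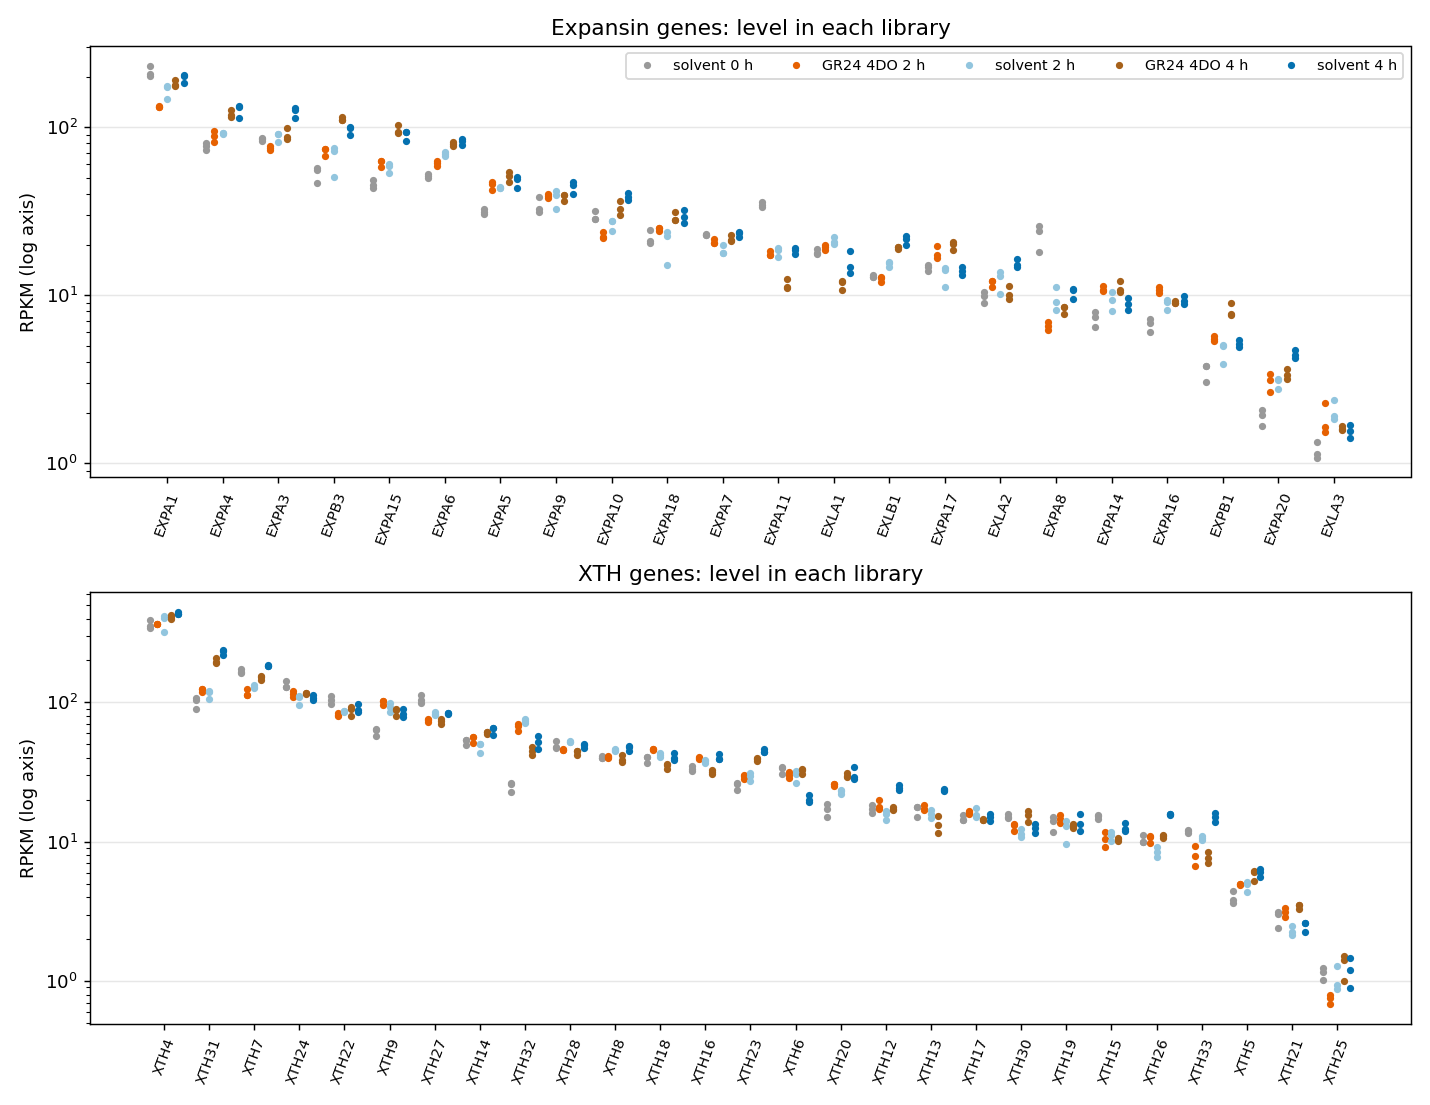
RPKM (log axis) of the 22 tested expansins and the 27 XTHs in each of the 15 libraries, each family ordered by its mean over the 5 groups, with 1 point a library and 1 colour a group. Levels within a family span more than the changes of any single gene between groups, and EXPA1 and XTH4 lead their families.

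Sequence shared with other genes touched few members. The share of 50-base windows of a gene's exons that also occur in exons of another gene, taken from TAIR10.1 annotation, was 85.0% for EXPA20, 31.4% for XTH15 and 7.82% for XTH21, and at most 1.77% for the other members. The gene that shares most with EXPA20 is a long non-coding RNA gene over the same place, AT4G38215, listed at 0 to 0.259 RPKM. AT4G14120, a protein-coding gene that shares sequence with XTH15, was listed at 1.36 to 2.85 RPKM. How reads from shared sequence and from either strand were counted is not given in the sources used here, so the values of EXPA20, XTH15 and XTH21 are uncertain.

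After 2 h of GR24 4DO few members were called. EXPA17, an alpha-expansin known from the emergence of lateral roots, rose, and EXPA1 and the expansin-like EXLB1 fell. These were 1 rise and 2 falls among 22 expansins tested, against 1.3% of all genes called in this comparison (0.887% rose and 0.412% fell). No XTH of 27 was called by limma or by limma-voom, while 11 had an unadjusted p under 0.05. The share of all genes under that unadjusted p is not given here, so the 11 have no background to be read against. The median difference was -0.02 over the expansins and 0.03 over the XTHs, beside 0.06 over all genes. The XTHs lay 16 above 0 and 11 below, beside 12483 above and 6672 below over all genes. Under quantile normalization the XTHs lay 13 above and 14 below, beside 9475 above and 9677 below over all genes. That scaling also gave 121 rises and 148 falls over all genes in place of 170 and 79.

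EXPA17 (AT4G01630) had 17.4, 16.6 and 19.6 RPKM in GR24 4DO libraries, against 11.2, 14.2 and 14.4 RPKM in solvent libraries at 2 h. All 3 treated libraries lay above all 3 solvent libraries, of which replicate 1 was the lowest. The difference was 0.41 ± 0.09 (SE, n = 3 each; limma, adjusted p = 0.0305). EXPA1 (AT1G69530) had 133, 131 and 133 RPKM in GR24 4DO libraries, against 147, 173 and 177 RPKM in solvent libraries. The treated libraries were nearly alike and all lower than the solvent ones, a difference of -0.32 ± 0.07 (adjusted p = 0.048). EXLB1 (AT4G17030) had 12.1, 12.8 and 12.7 RPKM in GR24 4DO libraries, against 15.6, 15.8 and 14.7 RPKM in solvent libraries. Here too the groups did not overlap, with a difference of -0.27 ± 0.06 (adjusted p = 0.0311).

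These 3 calls were close to the threshold. None of them held when the fit used only the compared groups (adjusted p of 0.112 for EXPA1, 0.127 for EXPA17 and 0.116 for EXLB1) or when the close pairs of libraries were averaged (0.252, 0.101 and 0.168). EXPA1 lost its call without any 1 library of GR24 4DO 2 h or 4 h, of solvent 4 h replicates 1 or 3, or of solvent 2 h replicates 2 or 3 (adjusted p of 0.051 to 0.184). EXPA17 lost it without replicate 2 or 3 of GR24 4DO 2 h, or replicate 1 of solvent 2 h (0.0582 to 0.169), and EXLB1 without any GR24 4DO 2 h library, solvent 2 h replicates 1 or 2, or replicate 1 of either 4 h group (0.0522 to 0.123).

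Libraries of the same replicate number varied together only weakly at 2 h, with residuals that correlated at 0.179, 0.133 and 0.101. With the replicate number as a block, 6 expansins and 3 XTHs were called. EXPA3 (adjusted p = 0.0463), EXPA6 (0.0408) and EXPA8 (0.0212) then fell beside EXPA1 (0.0124) and EXLB1 (0.0203), and EXPA17 rose (0.0124). Among the XTHs of the blocked fit, XTH26 rose (0.0376), and XTH28 (0.0479) and XTH33 (0.0236) fell.

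After 4 h of GR24 4DO both families held more calls, mostly falls. Among the expansins EXPA3, EXPA11, EXPA20, EXLA1 and EXLA2 fell, while EXPA17 and the beta-expansin EXPB1 rose. Among the XTHs 8 fell (XTH7, XTH8, XTH12, XTH13, XTH16, XTH18, XTH26 and XTH33) and 3 rose (XTH6, XTH21 and XTH30). These were 7 of 22 expansins and 11 of 27 XTHs, beside 8.93% of all genes called (4.69% rose and 4.23% fell). The median difference was -0.08 over the expansins, with 15 of 22 below 0, and -0.16 over the XTHs, with 21 of 27 below 0. Over all genes the median was 0.02, with 10555 above 0 and 8600 below. Under quantile normalization, median-of-ratios scaling and removal of gene length trends, 20 or 21 XTHs and 14 to 16 expansins lay below 0. Over all genes 9589, 9823 and 9709 of 19155 lay below 0 under these in that order.

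**Figure D2:**
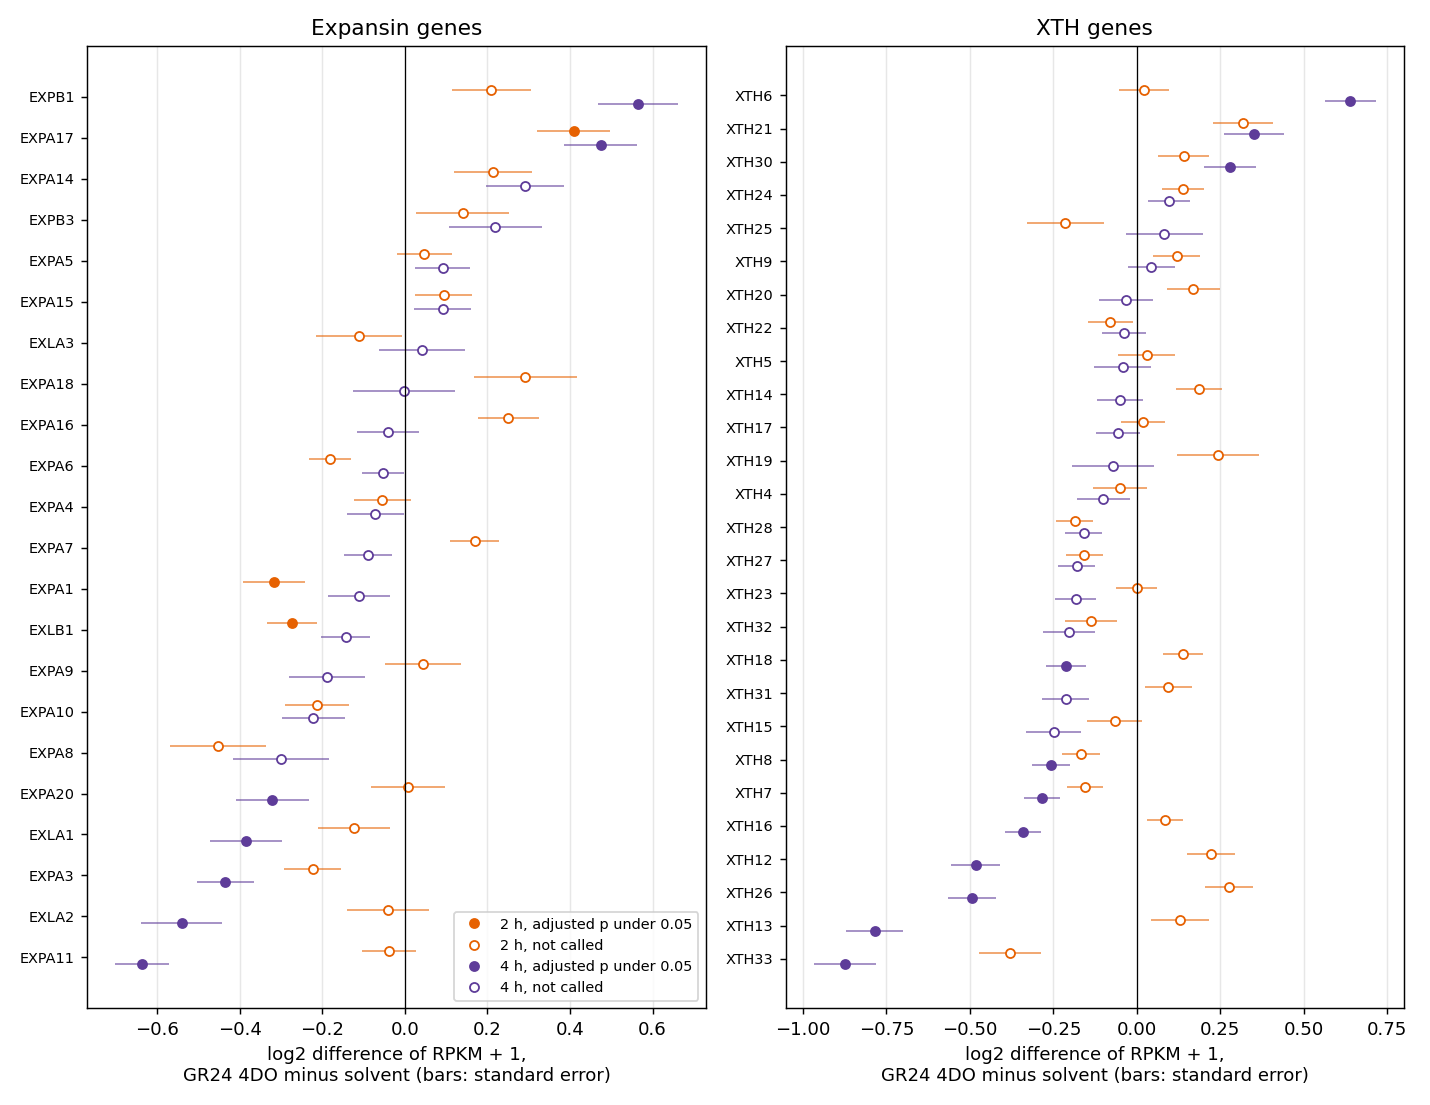
Difference between GR24 4DO and solvent on the log2(RPKM + 1) scale, at 2 h and at 4 h, for 22 expansins (left) and 27 XTHs (right), ordered by the value at 4 h. Points are the fitted differences, bars their standard errors (3 libraries a group), and filled points mark an adjusted p under 0.05: 3 expansins and no XTH at 2 h, and 7 expansins and 11 XTHs at 4 h.

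EXPA11 (AT1G20190), an alpha-expansin, had the largest fall of the expansins at 4 h, with 11.2, 11 and 12.4 RPKM in GR24 4DO libraries, against 18.7, 17.6 and 19.2 RPKM in solvent libraries. The highest treated library lay well under the lowest solvent one, and the mean was 0.624 times that of solvent. The difference was -0.64 ± 0.07 (SE, n = 3 each; limma, adjusted p = 1.01e-05). EXPA3 (AT2G37640), the third most abundant expansin, had 87.5, 85.2 and 99.3 RPKM in GR24 4DO libraries, against 126, 113 and 130.2 RPKM in solvent libraries. Its groups did not overlap and differed by -0.44 ± 0.07 (adjusted p = 0.000675).

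Both expansin-like genes called at 4 h fell. EXLA2 (AT4G38400) had 9.99, 9.44 and 11.4 RPKM in GR24 4DO libraries, against 15.1, 14.6 and 16.5 RPKM in solvent libraries, a difference of -0.54 ± 0.10 (adjusted p = 0.0021). EXLA1 (AT3G45970) had 12.1, 10.8 and 11.9 RPKM in GR24 4DO libraries, against 13.6, 18.4 and 14.7 RPKM in solvent libraries, a difference of -0.38 ± 0.09 (adjusted p = 0.0103), and solvent replicate 2 was its highest library. The groups overlapped in neither gene. EXLA3, which lies beside EXLA1 on chromosome 3 with 1 gene between them, was not called (0.04 ± 0.10, 95% interval -0.16 to 0.25). EXPA20 (AT4G38210), at a low level and in shared sequence, had 3.16, 3.33 and 3.63 RPKM in GR24 4DO libraries, against 4.42, 4.72 and 4.24 RPKM in solvent libraries, with a difference of -0.32 ± 0.09 (adjusted p = 0.0336).

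The 2 expansins that rose at 4 h differ in class. EXPB1 (AT2G20750), a beta-expansin, had 8.94, 7.76 and 7.62 RPKM in GR24 4DO libraries, against 5.11, 4.91 and 5.43 RPKM in solvent libraries. All treated libraries were higher, the mean was 1.57 times that of solvent, and the difference was 0.56 ± 0.10 (adjusted p = 0.00127). EXPA17 had 20.6, 20.1 and 18.7 RPKM in GR24 4DO libraries, against 13.2, 14.6 and 14 RPKM in solvent libraries, a difference of 0.47 ± 0.09 (adjusted p = 0.0025). Its groups did not overlap either. EXPB3, the abundant beta-expansin, was not called, with a difference of 0.22 ± 0.11.

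The largest falls among the XTHs at 4 h were in XTH33 and XTH13. XTH33 (AT1G10550), whose protein is held at the plasma membrane, had 7.67, 7.03 and 8.47 RPKM in GR24 4DO libraries, against 15.2, 13.8 and 16 RPKM in solvent libraries. The mean with GR24 4DO was 0.515 times that with solvent, with no overlap, and the difference was -0.88 ± 0.09 (SE, n = 3 each; limma, adjusted p = 1.3e-05). XTH13 (AT5G57540) had 13.2, 15.2 and 11.6 RPKM in GR24 4DO libraries, against 23.7, 23.6 and 23.3 RPKM in solvent libraries. The treated libraries varied more among themselves than the solvent ones but all lay lower, a difference of -0.79 ± 0.09 (adjusted p = 1.88e-05). XTH12 (AT5G57530), its neighbour on chromosome 5 with 1 gene between them, had 17.2, 17 and 17.7 RPKM in GR24 4DO libraries, against 23.5, 24.5 and 25.7 RPKM in solvent libraries, and differed by -0.48 ± 0.07 (adjusted p = 0.000399). The gene that follows XTH13, XTH25, and the next, XTH22, were not called, with differences of 0.08 ± 0.12 and -0.04 ± 0.07.

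XTH26 (AT4G28850), an XTH known from root hairs, had 10.9, 11.1 and 10.6 RPKM in GR24 4DO libraries, against 15.7, 15.7 and 15.7 RPKM in solvent libraries. Both groups were tight and did not overlap, with a difference of -0.49 ± 0.07 (adjusted p = 0.000328). XTH16 (AT3G23730) had 32.5, 31.8 and 30.5 RPKM in GR24 4DO libraries, against 39.4, 42.3 and 39.1 RPKM in solvent libraries, a difference of -0.34 ± 0.05 (adjusted p = 0.000679). These 5 genes, XTH12, XTH13, XTH16, XTH26 and XTH33, kept their calls at 4 h in every alternative run and with any single library left out, as did EXPA3, EXPA11, EXPB1 and XTH6.

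The remaining falls were smaller. XTH7 (AT4G37800), the third most abundant XTH, had 155, 145 and 153 RPKM in GR24 4DO libraries, against 183, 184 and 186 RPKM in solvent libraries, with a difference of -0.29 ± 0.05 (adjusted p = 0.00296). XTH8 (AT1G11545) had 38.5, 37.1 and 42 RPKM in GR24 4DO libraries, against 48.3, 44.5 and 48.1 RPKM in solvent libraries, with a difference of -0.26 ± 0.06 (adjusted p = 0.008). XTH18 (AT4G30280), an XTH of roots, had 35.3, 35.9 and 33.3 RPKM in GR24 4DO libraries, against 38.7, 43.2 and 39.7 RPKM in solvent libraries, with a difference of -0.21 ± 0.06 (adjusted p = 0.0331). In none of these 3 genes did the groups overlap.

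Of the 3 XTHs that rose at 4 h, XTH6 (AT5G65730) moved most. It had 30.8, 32.6 and 33.3 RPKM in GR24 4DO libraries, against 19.4, 21.7 and 19.9 RPKM in solvent libraries, which put every treated library well above every solvent library. The difference was 0.64 ± 0.08 (adjusted p = 3.94e-05). XTH21 (AT2G18800), known from studies of root growth, had 3.5, 3.51 and 3.3 RPKM in GR24 4DO libraries, against 2.24, 2.59 and 2.62 RPKM in solvent libraries, with a difference of 0.35 ± 0.09 (adjusted p = 0.0225). XTH30 (AT1G32170), of the same subgroup as XTH33, had 15.6, 13.9 and 16.7 RPKM in GR24 4DO libraries, against 11.6, 13.4 and 12.5 RPKM in solvent libraries, with a difference of 0.28 ± 0.08 (adjusted p = 0.0327). Neither XTH21 nor XTH30 had overlapping groups.

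Several of the 4 h calls did not hold in every alternative. With the close pairs of libraries averaged, the adjusted p was 0.0687 for EXPA17, 0.269 for EXPA20, 0.0519 for EXLA1, 0.0584 for EXLA2, 0.0834 for XTH7, 0.237 for XTH8, 0.166 for XTH18, 0.234 for XTH21 and 0.196 for XTH30. Single libraries of the 4 h groups also decided some calls. Without GR24 4DO replicate 2, EXLA1 (adjusted p = 0.0625) and XTH8 (0.0584) were not called. EXPA20 was not called without any 1 solvent library or GR24 4DO replicates 1 or 2 (0.067 to 0.144), nor XTH18 without solvent replicates 2 or 3 or any GR24 4DO library (0.0656 to 0.113). XTH21 was not called without solvent replicate 1 or GR24 4DO replicates 1 or 2 (0.0864 to 0.115), nor XTH30 without solvent replicates 1 or 3 or GR24 4DO replicates 1 or 3 (0.0969 to 0.159).

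The most abundant member of each family was not called at 4 h. XTH4 differed by -0.10 ± 0.08 (95% interval -0.26 to 0.06) and EXPA1 by -0.11 ± 0.07 (95% interval -0.26 to 0.03). The summed RPKM of the 27 XTHs was 1564 to 1611 in GR24 4DO libraries, against 1736 to 1764 in solvent libraries at 4 h. These sums did not overlap, while those of the 23 expansins did, at 932 to 1017 RPKM with GR24 4DO and 955 to 1063 RPKM with solvent. At 2 h the summed RPKM of both families overlapped between the groups, at 1445 to 1489 and 1389.6 to 1535 for the XTHs with GR24 4DO and solvent and at 735 to 775 and 738 to 835 for the expansins.

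Whether the response to GR24 4DO differed between 4 h and 2 h was tested directly, as the difference of the 2 differences. It was called for 1 of 22 expansins, EXPA11, and for 6 of 27 XTHs, of which XTH12, XTH13, XTH16, XTH18 and XTH26 fell relative to their 2 h response and XTH6 rose. Of all genes, 1.72% were called (0.961% upward and 0.757% downward, 184 and 145 genes), and with gene length trends removed these were 276 and 119 genes. The median was -0.01 over the expansins, -0.09 over the XTHs and -0.04 over all genes, and that of the expansins was above 0 under quantile normalization, median-of-ratios scaling and removal of gene length trends (0.03 to 0.05). The 4 h and 2 h responses rest on separate solvent libraries.

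XTH13 had the largest such difference, -0.91 ± 0.12 (limma, adjusted p = 0.000917). At 2 h it had 17.01, 17.2 and 18.2 RPKM with GR24 4DO and 16.95, 14.9 and 15.9 RPKM with solvent, groups that narrowly did not overlap. XTH26 followed with -0.77 ± 0.10 (adjusted p = 0.000917), after 9.74, 10.9 and 10.8 RPKM with GR24 4DO and 7.71, 9.23 and 8.49 RPKM with solvent at 2 h. XTH12 differed by -0.70 ± 0.10 (adjusted p = 0.00163), and had 17.8, 17.3 and 19.8 RPKM with GR24 4DO and 14.2, 15.9 and 16.5 RPKM with solvent at 2 h. In XTH12, XTH13 and XTH26 all treated libraries at 2 h thus lay above all solvent libraries, without a call, and at 4 h all lay below. Over all genes, 12483 differences lay above 0 and 6672 below at 2 h. The share of all genes whose groups do not overlap is not given here. These genes were picked by the difference of responses, a test that favours opposite signs at the 2 times.

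EXPA11 had a difference of responses of -0.60 ± 0.09 (adjusted p = 0.00276). At 2 h it had 17.3, 17.2 and 18.2 RPKM in GR24 4DO libraries, against 16.9, 18.5 and 19 RPKM in solvent libraries, which overlapped. XTH6 had 0.62 ± 0.11 (adjusted p = 0.00589) after 31.9, 29.9 and 28.7 RPKM in GR24 4DO libraries, against 26.4, 30.6 and 32.4 RPKM in solvent libraries at 2 h. Those 2 h groups overlapped as well.

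XTH16 had a difference of responses of -0.43 ± 0.08 (adjusted p = 0.00734) and, at 2 h, 40.5, 39.9 and 39.5 RPKM in GR24 4DO libraries, against 36.4, 37.9 and 38.5 RPKM in solvent libraries. XTH18 had -0.35 ± 0.08 (adjusted p = 0.0427) and, at 2 h, 46.5, 46.4 and 45.9 RPKM in GR24 4DO libraries, against 40.6, 41.9 and 43.4 RPKM in solvent libraries. In both, treated libraries were above solvent at 2 h and below it at 4 h, and here too the share of all genes with such groups is not given. With the close pairs averaged, the adjusted p of the difference of responses was 0.0775 for EXPA11, 0.12 for XTH6, 0.102 for XTH16 and 0.218 for XTH18, and the last was also lost in 12 of the 15 fits with 1 library left out, all but those without a solvent 0 h library (0.0559 to 0.107).

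Markers of root hair cells were set beside XTH12, XTH13 and XTH26, and few of them were called with GR24 4DO. Their 8 genes summed to 264 to 278 RPKM with GR24 4DO and 166 to 242 RPKM with solvent at 2 h, and none was at 0. At 4 h they summed to 296 to 329.8 RPKM with GR24 4DO and 329.4 to 408 RPKM with solvent, and these sums overlapped. At 4 h, 2 of 8 fell, beside 8.93% of all genes called (4.23% fell). They were PRP1 (-0.68, adjusted p = 0.022), a wall protein, and RSL4 (-0.34, adjusted p = 0.0163), a transcription factor of hair growth. The median of the 8 was -0.15, beside 0.02 over all genes. At 2 h none was called by limma and the median was 0.29, beside 0.06 over all genes. There 4 had an unadjusted p under 0.05, a count with no background here, since that share of all genes is not given. PRP1 was the marker called for the difference of responses (-1.06, adjusted p = 0.038), beside 1.72% of all genes. These calls were not firm: RSL4 was lost without GR24 4DO 4 h replicates 1 or 3, or solvent 4 h replicate 3 (0.0552 to 0.0839), PRP1 at 4 h without solvent 4 h replicates 1 or 3 or GR24 4DO 4 h replicates 1 or 2 (0.0784 to 0.0982), and both with the close pairs averaged (0.116 and 0.242). Without a filter PRP1 at 4 h was lost too (0.0572). The difference of responses of PRP1 was lost in 9 of the 15 fits with 1 library left out (0.0513 to 0.112), namely those without any GR24 4DO library, solvent 4 h replicates 1 or 3, or solvent 0 h replicate 1. It was also lost under 6 of 11 other alternatives (0.057 to 0.199), close pairs averaged among them. The part of these markers in the XTH results was not tested. EXPA7 and EXPA18, the expansins of root hairs, were not called at 4 h, at -0.09 ± 0.06 and -0.00 ± 0.12, nor at 2 h, at 0.17 ± 0.06 and 0.29 ± 0.12.

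**Figure D3:**
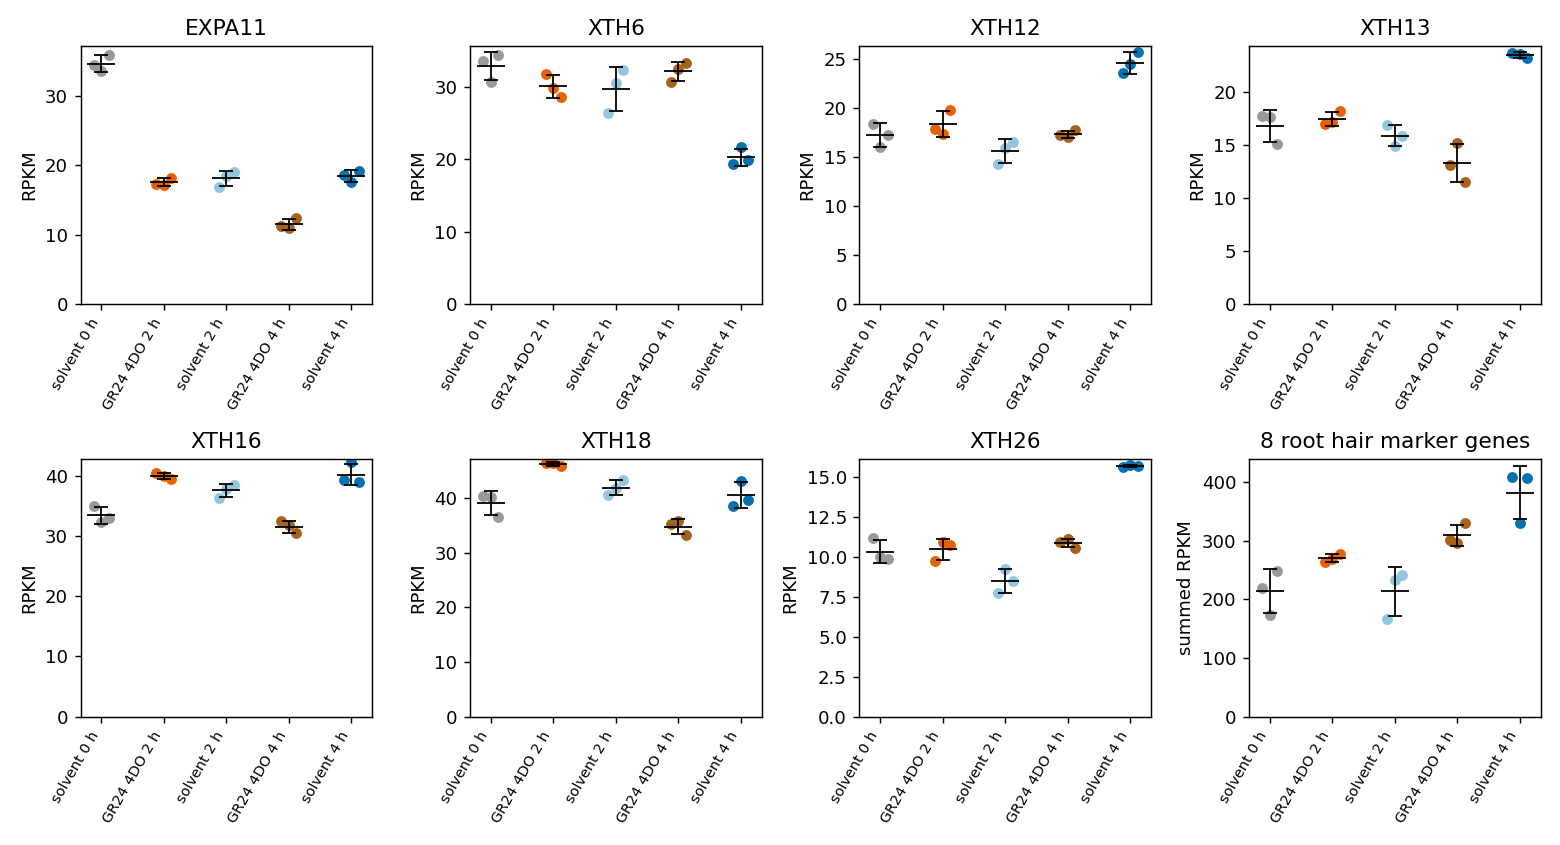
RPKM in each library (points) with the mean and SD of 3 libraries (bars) for the 7 members whose response to GR24 4DO differed between 4 h and 2 h, and the summed RPKM of 8 root hair marker genes, in 5 groups. At 4 h, GR24 4DO libraries lie below solvent libraries for EXPA11 and 5 XTHs and above them for XTH6, while the marker sums are 296 to 329.8 with GR24 4DO and 329 to 408 with solvent.

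The other marker lists gave few calls with GR24 4DO, beside 1.3% of all genes called at 2 h and 8.93% at 4 h. Of 3 genes of the guard cell line, FAMA (0.30) and SPCH (0.47) rose at 2 h (adjusted p = 0.0383 each) and none was called at 4 h. Both calls were lost without any 1 of 9 libraries, among them solvent 2 h replicates 1 and 2, GR24 4DO 2 h replicates 2 and 3, solvent 4 h replicates 1 and 3 and GR24 4DO 4 h replicates 1 and 2, the ninth being solvent 2 h replicate 3 for FAMA (0.0506 to 0.22) and GR24 4DO 2 h replicate 1 for SPCH (0.0526 to 0.2). FAMA was also lost under 5 of 11 other alternatives (0.0559 to 0.179) and SPCH under 6 (0.0684 to 0.119), with close pairs averaged and with only the compared groups among them. Of 3 leaf markers, CA1 rose at 4 h (0.33, adjusted p = 0.0205), a call lost without solvent 4 h replicates 2 or 3 or GR24 4DO 4 h replicates 1 or 3 (0.0529 to 0.073), with close pairs averaged (0.121), under median-of-ratios scaling (0.0819) and with gene length trends removed (0.0515). None of 4 root, 5 xylem or 2 epidermis markers was called by limma at either time. At 2 h 1 root marker had an unadjusted p under 0.05, a count with no background here.

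Genes that make the polymers on which these proteins act were set beside them. Of all genes, 1.3% were called with GR24 4DO at 2 h and 8.93% at 4 h. Of 12 genes of xyloglucan synthesis and trimming, none was called at 2 h and 2 fell at 4 h: XXT1 (-0.25 ± 0.06, adjusted p = 0.0122), a xyloglucan xylosyltransferase, and AXY4 (-0.37 ± 0.06, adjusted p = 0.00151), which acetylates xyloglucan. The call of XXT1 was lost without GR24 4DO 4 h replicates 1 or 2, or solvent 4 h replicate 3 (0.0578 to 0.0805), and with close pairs averaged (0.181). The median of the list at 4 h was -0.09, beside 0.02 over all genes. Of 9 tested genes of cellulose synthesis in the primary wall, 1 rose at 4 h, the cellulose synthase CESA5 (0.29 ± 0.07, adjusted p = 0.0133), a call that was lost once gene length trends were removed (adjusted p = 0.339), with close pairs averaged (0.154) and without GR24 4DO 4 h replicate 2 (0.0557). None of 7 tested pectin genes was called at either time. At 2 h, 1 xyloglucan, 2 cellulose and no pectin genes had an unadjusted p under 0.05, and at 4 h 1 pectin gene did. These counts have no background here either.

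In solvent alone more members were called than with GR24 4DO. These contrasts set later against earlier solvent libraries, in which time in liquid medium and time of day cannot be told apart. At 2 h against 0 h, 11 expansins rose and 4 fell, and 7 XTHs rose and 7 fell, beside 28.7% of all genes called (19% rose and 9.66% fell). The median was 0.24 over the expansins and -0.08 over the XTHs, beside 0.07 over all genes. The balance of rises and falls depended on scaling: quantile normalization gave 7 rises and 4 falls for expansins and 3 rises and 8 falls for XTHs, and median-of-ratios scaling 5 and 4 and 3 and 8, while over all genes quantile normalization gave 2563 rises and 2538 falls in place of 3644 and 1850.

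At 4 h against 2 h the rises prevailed in both families. There were 12 rises and 1 fall among the expansins, and 10 rises and 2 falls among the XTHs, beside 21.3% of all genes called (11.8% rose and 9.5% fell). The medians were 0.24 for the expansins and 0.11 for the XTHs, against 0.00 over all genes. Rises at both steps were called for 6 expansins (EXPA4, EXPA6, EXPA15, EXPA20, EXLA2 and EXLB1) and 3 XTHs (XTH20, XTH23 and XTH31). The share of all genes that rose at both steps is not given here, so these counts have no background to be read against. The 2 h and 0 h libraries overlapped in EXLA2 and XTH31. Some of these steps rested on single libraries: at 2 h against 0 h EXLA2, XTH23 and XTH31 were not called without solvent 0 h replicate 2 or solvent 2 h replicates 2 or 3, and EXLA2 also without solvent 0 h replicate 1 (0.0657 to 0.156). At 4 h against 2 h EXLA2 was not called without solvent 2 h replicate 1 or solvent 4 h replicates 1 or 3 (0.0723 to 0.142). With close pairs averaged, the earlier step was lost in EXPA4 (0.0529), EXLA2 (0.171), XTH23 (0.142) and XTH31 (0.19), and the later one in EXPA6 (0.083) and EXLA2 (0.0965). The steps share the 2 h libraries.

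Among the alpha-expansins that rose, EXPA15 (AT2G03090) had 45, 43.7 and 48.7 RPKM at 0 h, 53.6, 60.0 and 58.8 RPKM at 2 h and 94.1, 83 and 93.8 RPKM at 4 h. Each time lay above the one before without overlap, and the step at 4 h against 2 h was 0.64 ± 0.07 (limma, adjusted p = 6.72e-06). EXPA6 (AT2G28950) had 51.5, 49.8 and 52.4 RPKM at 0 h, 71, 69.6 and 67.6 RPKM at 2 h and 85.4, 78.8 and 82.5 RPKM at 4 h, with a step of 0.43 ± 0.05 at 2 h against 0 h (adjusted p = 1.01e-05). EXPA5 (AT3G29030), known from growth under brassinosteroid, had 32.5, 30.5 and 31.4 RPKM at 0 h, 43.4, 43.9 and 43.4 RPKM at 2 h and 50.4, 43.5 and 49.3 RPKM at 4 h, and differed by 0.46 ± 0.07 at the same step (adjusted p = 8.33e-05). The 2 h and 4 h libraries of EXPA5 overlapped, and no rise was called at its later step.

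EXPA3 had 85.7, 82.8 and 84.7 RPKM at 0 h, 81.7, 90.6 and 91.5 RPKM at 2 h and 126, 113 and 130.2 RPKM at 4 h, and rose by 0.48 ± 0.07 at 4 h against 2 h (adjusted p = 0.000143). EXPA10 (AT1G26770), known for its part in leaf and petiole growth, had 28.3, 28.5 and 31.8 RPKM at 0 h, 24.1, 27.7 and 27.6 RPKM at 2 h and 38.4, 36.8 and 40.4 RPKM at 4 h, with a step of 0.53 ± 0.08 at the same time (adjusted p = 0.000149). The expansin-like EXLB1 had 13.2, 12.8 and 12.9 RPKM at 0 h, 15.6, 15.8 and 14.7 RPKM at 2 h and 21.6, 19.9 and 22.5 RPKM at 4 h, with a step of 0.45 ± 0.06 (adjusted p = 6.42e-05). In all 3 the 4 h libraries stood above all earlier ones.

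The falls among the expansins were fewer, and EXPA8 and EXPA11 changed most. EXPA8 (AT2G40610) had 24, 18.1 and 25.9 RPKM at 0 h, 8.16, 9.06 and 11.1 RPKM at 2 h and 10.9, 9.54 and 10.7 RPKM at 4 h, with a step of -1.18 ± 0.12 at 2 h against 0 h (adjusted p = 1.56e-06). EXPA11 had 34.5, 33.6 and 36 RPKM at 0 h, 16.9, 18.5 and 19 RPKM at 2 h and 18.7, 17.6 and 19.2 RPKM at 4 h, a step of -0.90 ± 0.07 (adjusted p = 4.11e-08). Both stayed at their lower level at 4 h. EXPA7 (AT1G12560) had 22.8, 23 and 23.3 RPKM at 0 h, 17.7, 19.8 and 17.8 RPKM at 2 h and 22.3, 23.9 and 23.6 RPKM at 4 h, and EXPA1 had 201, 208 and 233 RPKM at 0 h, 147, 173 and 177 RPKM at 2 h and 201, 182 and 204 RPKM at 4 h. Both fell at 2 h against 0 h, EXPA7 with a difference of -0.31 ± 0.06 (adjusted p = 0.00107) and EXPA1 with one of -0.37 ± 0.07 (adjusted p = 0.00143), and both rose at 4 h against 2 h. The rise of EXPA1 was lost without solvent 2 h replicate 1 or solvent 4 h replicates 1 or 3 (0.102 to 0.111) and with close pairs averaged (0.127). EXLA1 had 17.9, 18.7 and 17.7 RPKM at 0 h, 22.1, 20.8 and 20.1 RPKM at 2 h and 13.6, 18.4 and 14.7 RPKM at 4 h, and was the expansin that fell at 4 h against 2 h (-0.42 ± 0.09, adjusted p = 0.00266).

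XTH32 (AT2G36870), one of the XTHs of the subgroup with hydrolases, had the largest change of all members in solvent. It had 25.8, 22.6 and 26.4 RPKM at 0 h, 71.4, 73.6 and 75.9 RPKM at 2 h and 52, 46.5 and 57 RPKM at 4 h. At 2 h it averaged 2.95 times its 0 h level, with a difference of 1.53 ± 0.08 (adjusted p = 7.34e-10), and it then fell (-0.50 ± 0.08, adjusted p = 0.000257). XTH31 (AT3G44990), of the same subgroup and with hydrolase activity, moved at the other step, with 104, 89.9 and 107 RPKM at 0 h, 106, 121 and 119 RPKM at 2 h and 234, 219.9 and 236 RPKM at 4 h. Its 4 h level was 1.99 times that at 2 h (0.99 ± 0.07, adjusted p = 7.94e-08).

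XTH26 had 11.2, 9.97 and 9.89 RPKM at 0 h, 7.71, 9.23 and 8.49 RPKM at 2 h and 15.7, 15.7 and 15.7 RPKM at 4 h. It was lowest at 2 h and highest at 4 h, and rose at 4 h against 2 h by 0.82 ± 0.07 (adjusted p = 8.16e-07). At this step 6 of 8 root hair markers rose too, beside 11.8% of all genes. Among these markers PRP1 rose by 1.09 and PRP3 by 0.89 on the log2 scale (adjusted p = 0.000343 each), while ADF8, COBL9 and LRX1 lost their calls with close pairs averaged (0.0665, 0.156 and 0.0754). LRX1 lost it also without solvent 2 h replicate 1 or solvent 4 h replicates 1 or 3, and COBL9 without these or solvent 2 h replicate 2 (0.0755 to 0.111). The markers' part in the step of XTH26 was not tested. XTH23 (AT4G25810) had 26.5, 23.7 and 25.9 RPKM at 0 h, 27.1, 29.9 and 30.9 RPKM at 2 h and 43.9, 46.2 and 43.7 RPKM at 4 h, a step of 0.59 ± 0.06 (adjusted p = 4.91e-06). XTH7 had 164, 175 and 164 RPKM at 0 h, 129, 132 and 128 RPKM at 2 h and 183, 184 and 186 RPKM at 4 h. It fell at 2 h against 0 h (-0.36 ± 0.05, adjusted p = 0.000101) and rose at 4 h against 2 h (0.50 ± 0.05, adjusted p = 7.39e-06). XTH9 (AT4G03210) had 62.9, 64.9 and 57.4 RPKM at 0 h, 98.7, 92.6 and 85.8 RPKM at 2 h and 82, 89.9 and 78.7 RPKM at 4 h, with a rise of 0.57 ± 0.07 at 2 h (adjusted p = 1.51e-05) that the 4 h libraries did not exceed.

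XTH6 had 33.7, 30.7 and 34.5 RPKM at 0 h, 26.4, 30.6 and 32.4 RPKM at 2 h and 19.4, 21.7 and 19.9 RPKM at 4 h, with a step of -0.53 ± 0.08 at 4 h against 2 h (adjusted p = 0.000139). Its solvent libraries at 4 h were thus its lowest of all 15. XTH27 (AT2G01850), known from leaf vein cells, had 113, 98.9 and 103 RPKM at 0 h, 81.1, 82.5 and 85.8 RPKM at 2 h and 83.3, 82.5 and 83.3 RPKM at 4 h, with a step of -0.33 ± 0.06 at 2 h against 0 h (adjusted p = 0.000293). XTH24 (AT4G30270) had 129.7, 129 and 141 RPKM at 0 h, 95.4, 110.3 and 109 RPKM at 2 h and 108, 114 and 105 RPKM at 4 h, a step of -0.35 ± 0.06 (adjusted p = 0.000665). XTH15 (AT4G14130), one of the XTHs that rise in shade, had 14.6, 15.3 and 15.7 RPKM at 0 h, 10.1, 11.1 and 11.8 RPKM at 2 h and 13.6, 11.9 and 12.3 RPKM at 4 h, with a step of -0.43 ± 0.08 (adjusted p = 0.000954). In these 3 all 4 h libraries still lay below all 0 h libraries.

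**Figure D4:**
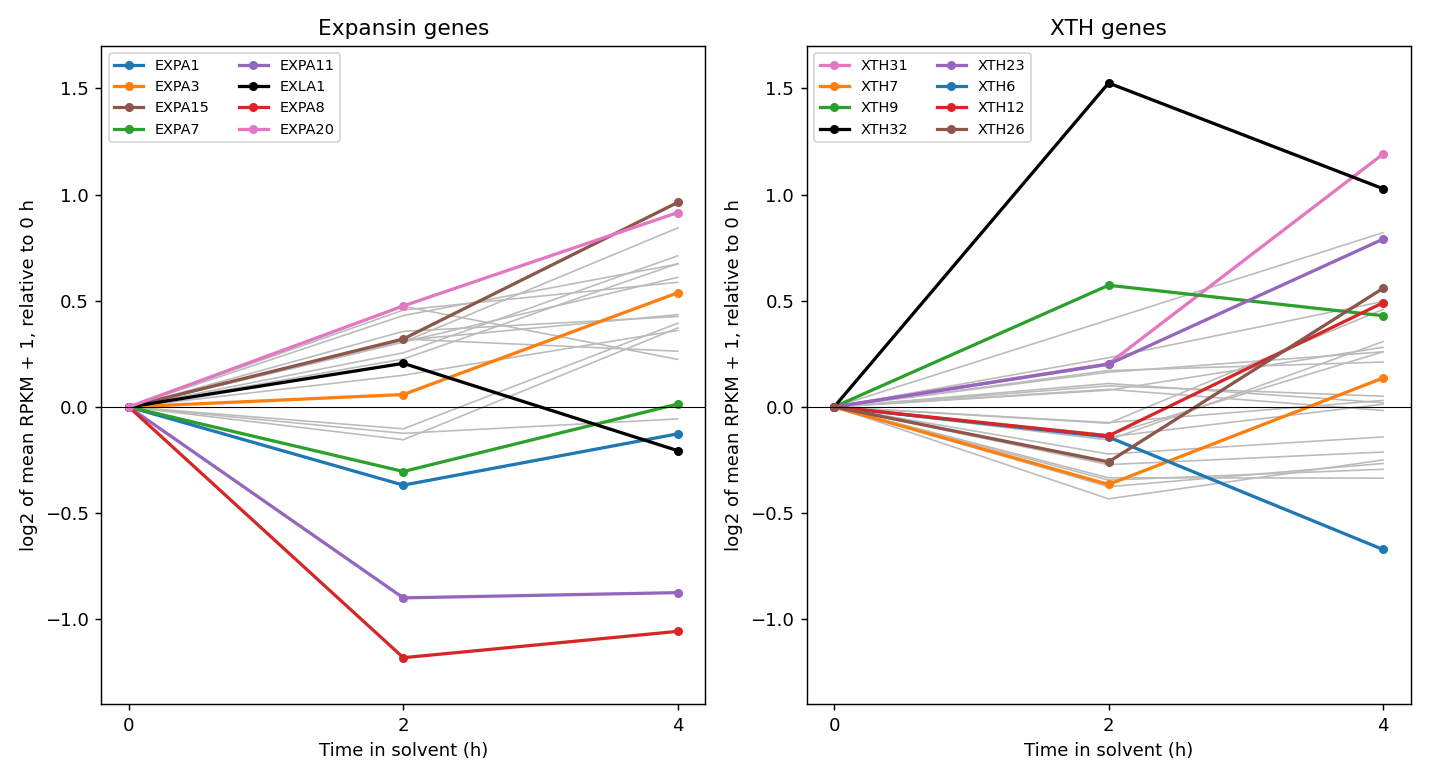
Mean level of each tested member in solvent libraries at 0, 2 and 4 h (3 libraries a time), as log2(mean RPKM + 1) relative to 0 h, with 8 members of each family in colour and the others in grey. Most expansins end above their 0 h level. EXPA8 and EXPA11 end furthest below it, EXPA1, EXLA1 and EXPA17 also end below it, and XTH32 peaks at 2 h.

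Set beside the GR24 4DO contrast at 4 h, with which it shares the solvent 4 h libraries, the later solvent step gave these values. For XTH12 it was 0.63 (adjusted p = 1.52e-05) and for XTH13 0.54 (adjusted p = 0.000339), where GR24 4DO gave -0.48 and -0.79. For XTH33 it was 0.46 (adjusted p = 0.00217) beside -0.88 with GR24 4DO, and for EXPA11 0.03, without a call, beside -0.64. The levels of XTH12 in GR24 4DO libraries were 17.8, 17.3 and 19.8 RPKM at 2 h and 17.2, 17 and 17.7 RPKM at 4 h, which overlap.

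Some of the other wall genes also changed in solvent. At 2 h against 0 h, 6 of 12 xyloglucan genes rose and 2 fell, 4 of 9 cellulose genes rose, and of 7 pectin genes 2 rose and 2 fell. Of all genes 28.7% were called at this step (19% rose and 9.66% fell). The smallest adjusted p values were those of BGAL10 (0.61, adjusted p = 2.49e-06), a galactosidase that trims xyloglucan, CESA5 (0.76, adjusted p = 4.56e-07) and QUA1 (0.45, adjusted p = 1.39e-05), a gene of pectin synthesis. At 4 h against 2 h, 3 xyloglucan genes rose and 2 fell, 1 cellulose gene rose and 2 fell, and 2 pectin genes fell, beside 21.3% of all genes called. XLT2, a xyloglucan galactosyltransferase, was the xyloglucan gene with the smallest adjusted p at this step (0.50, adjusted p = 0.000405). Of 43 calls in the wall and marker lists over both solvent steps, 16 held in every alternative run and with any library left out.

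Markers of cell types also changed in solvent, where 28.7% of all genes were called at 2 h against 0 h and 21.3% at 4 h against 2 h. The 3 leaf markers summed to 27194 to 32714 RPKM at 0 h, 21352 to 22209 at 2 h and 14876 to 16912 at 4 h. All 3 fell at 2 h against 0 h, and LHCB1.3 and CA1 fell at 4 h against 2 h. Under quantile normalization RBCS1A and LHCB1.3 were not called at the earlier step (adjusted p = 1 each), nor LHCB1.3 at the later one (0.276). That scaling gives genes of equal rank the same value in every library. It can therefore hide a fall in the most abundant genes, and these losses do not bear on the falls. RBCS1A was not called without a filter either (0.0869). Of 3 markers of the guard cell line 2 rose at 2 h against 0 h. FAMA (0.57, adjusted p = 1.23e-05) kept this call in every alternative, and SPCH (0.38, adjusted p = 0.0145) lost it under 3 of 11 and without solvent 0 h replicates 1 or 2 or solvent 2 h replicates 2 or 3 (0.0574 to 0.106). Of 2 epidermis markers FDH rose at that step (0.17, adjusted p = 0.0297), a call lost under 7 of 11 alternatives and without solvent 0 h replicate 1 or solvent 2 h replicates 2 or 3 (0.0515 to 0.433).

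At 4 h against 2 h, 2 of 4 root markers rose, BGLU23 (0.21, adjusted p = 0.0392) and SCR (0.31, adjusted p = 0.0475). Both were lost with close pairs averaged (0.211 and 0.125) and in 7 and 11 of the 15 fits with 1 library left out, any solvent 4 h library among them. Of 5 xylem markers XCP2 fell (-0.22, adjusted p = 0.0158), a call lost with close pairs averaged (0.105) and without replicate 1 of solvent 2 h or of solvent 4 h (0.0532 to 0.081). The part of these markers in the solvent changes of the members and of the wall genes was not tested.

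The members not described so far are given by the range of their group means. Among the expansins they were EXPA4 at 76.8 to 126 RPKM, EXPB3 at 53.2 to 112, EXPA9 at 34.1 to 44.1, EXPA18 at 20.5 to 29.3, EXPA14 at 7.25 to 11.1, EXPA16 at 6.72 to 10.7 and EXLA3 at 1.18 to 2.03. EXPA9 was the tested expansin that no contrast called. Among the XTHs they were XTH22 at 81.4 to 104 RPKM, XTH14 at 47.8 to 63, XTH28 at 43.7 to 52.5, XTH20 at 17 to 30.7, XTH17 at 14.4 to 16.2, XTH19 at 12.3 to 14.5, XTH5 at 3.96 to 6.0 and XTH25 at 0.745 to 1.31. XTH4, XTH17, XTH19, XTH25 and XTH28 were called in no contrast. XTH18 and XTH19 lie side by side on chromosome 4 and share 1.7% and 1.77% of their windows, and XTH19 differed from solvent by -0.07 ± 0.12 with GR24 4DO at 4 h, beside -0.21 ± 0.06 for XTH18.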

How the data were processed

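The authors deposited 1 table of RPKM per gene, computed from read counts. Per the submitters' processing notes, reads were handled with STAR, featureCounts, DESeq and the TAIR10 genome. For versions, strand and shared reads, nothing is given in the sources used here. One row without a gene name was left out. All 347846 values above 0 were whole reads, within 0.02 reads, after multiplication by the gene length and the total of the library, which gave the depths.

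A gene needed 1 RPKM or more in 3 libraries, and these were tested with limma 3.58.1 (R 4.3.3) on log2(RPKM + 1), in 1 fit of all 15 libraries by group, with a trend of variance with level and Benjamini-Hochberg adjustment over 19155 genes. On simulated data for the 2 h comparison (19063 genes), 76% of 1.5-fold and 99% of 2-fold changes were recovered, and 8.85% of the 192 genes called were false. The simulated libraries were independent, with the same spread set for every gene and no change in the other groups. The libraries here have close pairs and uneven spread, so these rates may not hold for them. The plan named a count test for raw counts; the table held RPKM, so recovered reads served only limma-voom, an alternative. Other alternatives were quantile and median-of-ratios scaling, no variance trend, no filter, a pseudocount of 0.1 RPKM, only the compared groups, a replicate block, close library pairs averaged, each library left out, and, added after seeing the data, gene length trends removed.

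Replicate numbers come from the labels. Residuals of same-numbered libraries correlated at 0.179, 0.133 and 0.101 between the 2 h groups, so the blocked values are given there; the other contrasts had a same-numbered pair under 0.1. These families and the gene lists were chosen with earlier results of these data known. Every member is named; values in each library are given for members called in a GR24 4DO contrast or in the difference of responses, and for the 6 called members per family and direction with the smallest adjusted p over the solvent contrasts. Genes of the other lists are named where GR24 4DO contrasts called them, and otherwise as examples of small adjusted p in solvent. No sequences or coordinates are printed, since the reference used for gene neighbours and shared windows was TAIR10.1.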

Additional observations from a re-analysis of the deposited data

Results flagged for a closer look

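The response to GR24 4DO differed between 4 h and 2 h, by limma's test of the difference of the 2 log2 differences, in 7 members. The difference, 4 h minus 2 h, was -0.60 for EXPA11, 0.62 for XTH6, -0.70 for XTH12, -0.91 for XTH13, -0.43 for XTH16, -0.35 for XTH18 and -0.77 for XTH26. For EXPA11 the response was -0.64 at 4 h and -0.04 at 2 h, and for XTH6 it was 0.64 at 4 h and 0.02 at 2 h. The other 5 were below 0 at 4 h and above 0 at 2 h: -0.48 and 0.22 for XTH12, -0.79 and 0.13 for XTH13, -0.34 and 0.09 for XTH16, -0.21 and 0.14 for XTH18, and -0.49 and 0.28 for XTH26. None of these 7 was called at 2 h in the fit without the replicate block, in which the median over all genes was 0.06.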

How the results depend on the processing

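Of all 82 calls of members over the 5 contrasts, 51 held in all 26 alternatives, left-out libraries included, 31 were lost at least once and none turned its direction. With GR24 4DO and for the difference of responses 16 of 28 were lost at least once. In solvent 15 of 54 were, at 2 h against 0 h EXPA4, EXPA14, EXPA15, EXPB1, EXLA2, EXLB1, XTH8, XTH16, XTH23, XTH26 and XTH31 and at 4 h against 2 h EXPA1, EXPA6, EXLA2 and XTH5, 12 of them with close pairs averaged. Beside the cases given above, calls lost with 1 library left out were EXPA14 and XTH16 (solvent 0 h replicate 2 or solvent 2 h replicates 2 or 3, XTH16 also solvent 0 h replicate 3), EXPB1 (solvent 0 h replicate 1 or solvent 2 h replicates 2 or 3), XTH8 (solvent 0 h replicates 1 or 2 or any solvent 2 h library), XTH26 (replicate 1 of either group) and XTH5 (solvent 2 h replicates 2 or 3 or solvent 4 h replicates 1 or 3), at adjusted p of 0.0505 to 0.159. Beside the losses given above, EXPA1 at 2 h was lost under 5 further alternatives (0.0523 to 0.0766), EXPA17 without a filter (0.0553) and under median-of-ratios scaling (0.0565), and EXLB1 under limma-voom (0.0588). At 4 h EXPA20 (0.0547) and XTH8 (0.0501) were lost with length trends removed, XTH18 without the variance trend (0.0535), XTH21 under quantile normalization (0.052), and XTH30 under median-of-ratios scaling (0.0627) and with only the compared groups (0.0557). The difference of responses of XTH18 was lost under median-of-ratios scaling (0.0511), without the trend (0.0771) and under limma-voom (0.057). The family counts moved by over 1.5 times as follows, and the cause was not tested. Expansins called with GR24 4DO at 2 h, 3 in the fit as reported, were 1 under median-of-ratios scaling, 1 without a filter, 0 with only the compared groups, 0 with close pairs averaged, 6 with the replicate block and 6 with the block and gene length trends removed. XTHs called at 2 h, 0 as reported, were 1 under quantile normalization, 3 with the block and 4 with the block and length trends removed. With close pairs averaged, which leaves fewer samples, the calls at 4 h were 3 expansins in place of 7 and 6 XTHs in place of 11, and for the difference of responses 0 expansins in place of 1 and 3 XTHs in place of 6. The block gave 2 expansins for that difference. At solvent 2 h against 0 h, median-of-ratios scaling called 9 expansins in place of 15, and only the compared groups 9 XTHs in place of 14.

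With each of the 15 libraries left out in turn, the expansins called were 0 to 4 with GR24 4DO at 2 h, 5 to 9 at 4 h, 1 to 1 for the difference of responses, 12 to 17 at solvent 2 h against 0 h and 11 to 13 at solvent 4 h against 2 h. The XTHs called were 0 to 1, 8 to 14, 5 to 6, 10 to 15 and 11 to 12 for the same comparisons in that order. Where 2 libraries of a group remained, limma took their spread from all groups. It is not settled in any contrast whether the replicate numbers pair the libraries. At 2 h the residuals of same-numbered libraries correlated only at 0.179, 0.133 and 0.101. At 4 h the residuals of same-numbered libraries correlated at -0.183, 0.491 and 0.407. With the block, which sets 1 effect per replicate number over all 15 libraries, 9 expansins and 15 XTHs were called at 4 h. Limits are the 3 libraries a group, the 3 close pairs among them, and the low reads of EXPA2, XTH25 and EXLA3.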
